A study of Mus musculus with 12 samples.

Results

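The 8 genes described here, Dazl, Ddx4, Mael, Sycp1, Sycp3, Tex19.1, Rpl10l and Zscan4d, act in germ cells, in meiosis or in the first embryonic cells, and their chromatin accessibility was followed during reprogramming of mouse fibroblasts. They were chosen by name. A counted region belonged to a gene when it overlapped the gene's span in mm10 or lay within 10 kb of either end, which gave 18 of 115000 regions, and all 8 genes were among the 18088 protein-coding genes with a region. ATAC-seq uses a transposase that inserts adapters into open DNA, so reads in a region measure how open it is and not how much its gene is transcribed. The 4 groups had 3 libraries each: unsorted mouse embryonic fibroblasts (MEF), Stage 1 cells taken at day 6, Stage 2 cells taken 4 days after day 6, and established induced pluripotent stem cells (iPSC). All cells were of a mixed C57BL/6 and 129 background. Every group but MEF was sorted for Oct4-GFP, a reporter of the pluripotency gene Oct4, so sorting and reprogramming cannot be told apart in a comparison with MEF. The procedure is labelled 3c enhanced reprogramming; what 3c stands for, how the factors were delivered and whether iPSC were 1 line or several is not given in the sources used here. Nothing in the labels ties the replicates to separate cultures or mice, and the p-values cover only the variation among the libraries, which may be technical. In these bulk libraries, fewer open cells and less opening per cell cannot be told apart.

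Germ cells use a set of genes that other cells keep off. DAZL and DDX4 (the mouse Vasa protein) bind and remodel RNA in germ cells, MAEL and TEX19.1 help to hold transposons in check, and SYCP1 and SYCP3 build the synaptonemal complex that joins homologous chromosomes in meiosis. RPL10L, encoded by an intronless copy of Rpl10, supplies a ribosomal protein in spermatocytes, and Zscan4 genes are switched on in 2-cell embryos and in rare cells of pluripotent cultures. In somatic cells of the mouse many germline promoters are silenced by DNA methylation, and in embryonic stem cells several are held down by a repressor that contains E2F6, MGA and MAX.

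The promoters of the 5 genes with a counted region over their start site are shown because all 5 of these regions rose in Stage 1 and in iPSC against MEF. Each is the 250 bases before the start, 5′ to 3′ on the gene's strand, from RefSeq for GRCm38.p6, which is mm10; a RefSeq promoter was found for all 8 genes. Capitals mark CACGTG (the core of the E-box, recognised by MAX and related proteins), GGCGGGAA (letters recognised by E2F proteins) or the NRF1 palindrome (GCGCA followed by its reverse complement).
Tex19.1 promoter, chr11:121145893-121146142, plus strand: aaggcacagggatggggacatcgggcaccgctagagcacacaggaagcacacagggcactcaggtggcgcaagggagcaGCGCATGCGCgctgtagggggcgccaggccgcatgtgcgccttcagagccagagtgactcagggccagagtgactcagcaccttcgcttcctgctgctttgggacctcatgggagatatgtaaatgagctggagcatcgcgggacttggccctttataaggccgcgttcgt
Mael promoter, chr1:166238745-166238994, minus strand: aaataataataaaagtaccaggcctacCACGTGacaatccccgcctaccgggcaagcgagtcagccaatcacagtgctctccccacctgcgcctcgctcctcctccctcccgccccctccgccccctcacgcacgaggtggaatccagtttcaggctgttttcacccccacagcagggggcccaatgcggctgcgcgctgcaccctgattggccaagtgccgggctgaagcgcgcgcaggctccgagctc
Ddx4 promoter, chr13:112652311-112652560, minus strand: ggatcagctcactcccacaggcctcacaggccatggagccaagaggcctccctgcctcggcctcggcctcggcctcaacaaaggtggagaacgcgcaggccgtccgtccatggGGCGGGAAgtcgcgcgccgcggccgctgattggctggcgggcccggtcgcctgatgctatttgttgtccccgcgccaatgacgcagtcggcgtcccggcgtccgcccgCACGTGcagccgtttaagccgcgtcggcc
Sycp3 promoter, chr10:88459337-88459586, plus strand: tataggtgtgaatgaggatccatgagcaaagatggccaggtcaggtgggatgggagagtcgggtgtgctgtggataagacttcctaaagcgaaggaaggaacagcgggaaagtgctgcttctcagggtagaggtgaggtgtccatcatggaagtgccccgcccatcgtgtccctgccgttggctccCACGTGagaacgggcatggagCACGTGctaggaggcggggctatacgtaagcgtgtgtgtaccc
Rpl10l promoter, chr12:66284402-66284651, minus strand: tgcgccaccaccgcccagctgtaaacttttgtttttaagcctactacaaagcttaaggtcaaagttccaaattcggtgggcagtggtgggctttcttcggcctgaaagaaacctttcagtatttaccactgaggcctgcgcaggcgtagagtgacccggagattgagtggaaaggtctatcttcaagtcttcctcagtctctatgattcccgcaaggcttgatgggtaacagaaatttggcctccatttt

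CACGTG stood in 4 of the 8 promoters, those of Ddx4, Mael, Sycp1 and Sycp3, against 6.02% of 32851 RefSeq promoters of the same length. Sycp3 held it at both 64 to 59 and 43 to 38 bases before its start, Ddx4 at 29 to 24 bases and Mael at 223 to 218 bases. GGCGGGAA was found in the Ddx4 promoter alone of the 8, against 1.86% of all promoters, and the NRF1 palindrome in the Tex19.1 promoter alone, against 0.782%. The cAMP response element TGACGTCA and the octamer ATGCAAAT were in none of the 8 promoters and in 1.55% and 1.60% of all promoters. Both strands were searched, and the marked matches did not overlap. A match describes letters and no binding. The ratio of observed to expected CpG was above the median of all promoters, 0.374, in 7 of the 8, with 1.00 in Ddx4, 0.893 in Sycp1, 0.750 in Mael, 0.710 in Dazl, 0.643 in Tex19.1, 0.639 in Sycp3 and 0.556 in Rpl10l. Zscan4d had 0.224.

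Libraries held 1034936 to 6261903 reads in regions. Reads in regions made up 11.3% to 22.1% of a MEF library, between 7.36% and 8.12% of a Stage 1 library, between 5.31% and 6.91% of a Stage 2 library and between 4.49% and 5.25% of an iPSC library. MEF replicate 3 had the smallest share of the MEF libraries. Each region was therefore also set against its expected background, the reads outside all regions spread evenly per base; a ratio of 1 is that level. CPM here means reads scaled to library size, the reads in all regions adjusted by TMM, a factor between libraries. For genes the size is the sum over all genes, also adjusted by TMM. The same reads can thus differ in CPM between a region and its gene. For a region of 550 bp the expected background averaged 1.37 CPM in MEF cells, then 2.34 CPM in Stage 1, 3.12 CPM in Stage 2 and 3.82 CPM in iPSC. A rise in CPM therefore includes the growth of the background. Regions at 8 fibroblast marker genes summed to between 254 and 353 CPM in the later groups and to 580 to 593 CPM in MEF. Over background this was 1.35 to 2.11 times in the later groups and 5.87 to 12.7 times in MEF. Those at 8 pluripotency marker genes summed to between 733 and 1010 CPM in the later groups and to 150 to 180 CPM in MEF, and no marker was at 0 reads. Over background the pluripotency sum was 5.60 to 6.12 times in Stage 1 and 4.94 to 6.90 times in Stage 2. It overlapped between iPSC, with 3.19 to 4.15 times, and MEF, with 1.94 to 3.52 times. At 10 germ cell markers, 4 of which are Dazl, Ddx4, Mael and Sycp1, the sum was 342 to 394 CPM in the later groups and 247 to 262 CPM in MEF, which is 2.36 to 4.96 times background later and 4.47 to 9.38 times in MEF. Whether cells of another type contributed to a result below was not tested.

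The 18 regions fell into a few patterns by the authors' list of open intervals for each stage. Over the start sites of Tex19.1, Mael, Ddx4, Sycp3 and Rpl10l lay 5 regions, none of them in the MEF list and all of them in the iPSC list. By contrast 5 regions were in the MEF list alone, none of them over a start site: 2 at Mael and 1 each at Sycp1, Sycp3 and Rpl10l. Only 2 regions were in all 4 lists, 1 inside Dazl and 1 upstream of Ddx4. Of the 8 regions within 1 kb of a start, at 7 of the genes, 7 were absent from the MEF list, the exception being that of Dazl. Among 11525 start-site regions of all genes, 62.2% were in all 4 lists and 5.63% were absent from the MEF list but in the iPSC list. List membership comes from the same libraries as the counts: a region outside the MEF list was counted only because a later stage listed it, so its rise over MEF follows in part from that, and it is not independent evidence. In the same way a region of the MEF list alone was listed at no later stage, so its fall after MEF follows in part from the choice.

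**Figure D1:**
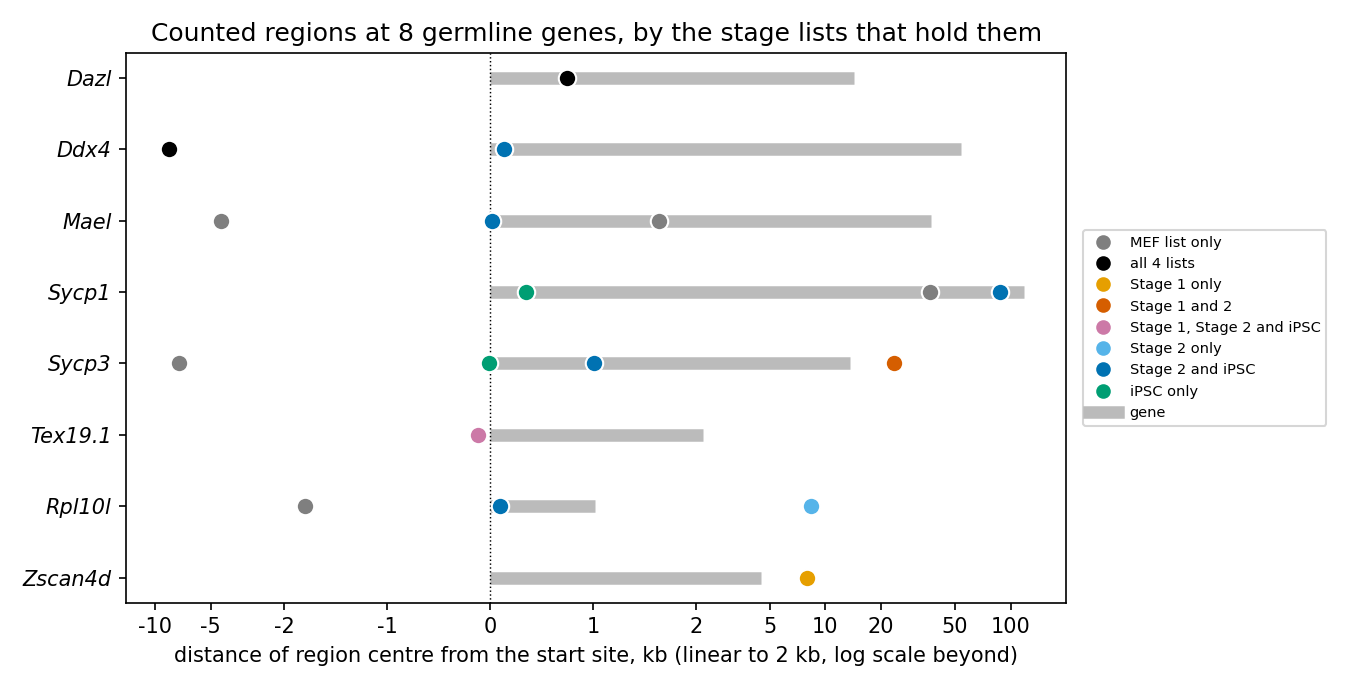
Position of the 18 regions at the 8 genes, with the distance of each region's centre from the start site in kb (linear to 2 kb, log scale beyond, positive in the direction of transcription) and the colour giving the stage lists that hold it; grey bars are the genes. The 5 regions over a start site are in no MEF list, and the 5 regions of the MEF list alone lie away from the starts.

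**Figure D2:**
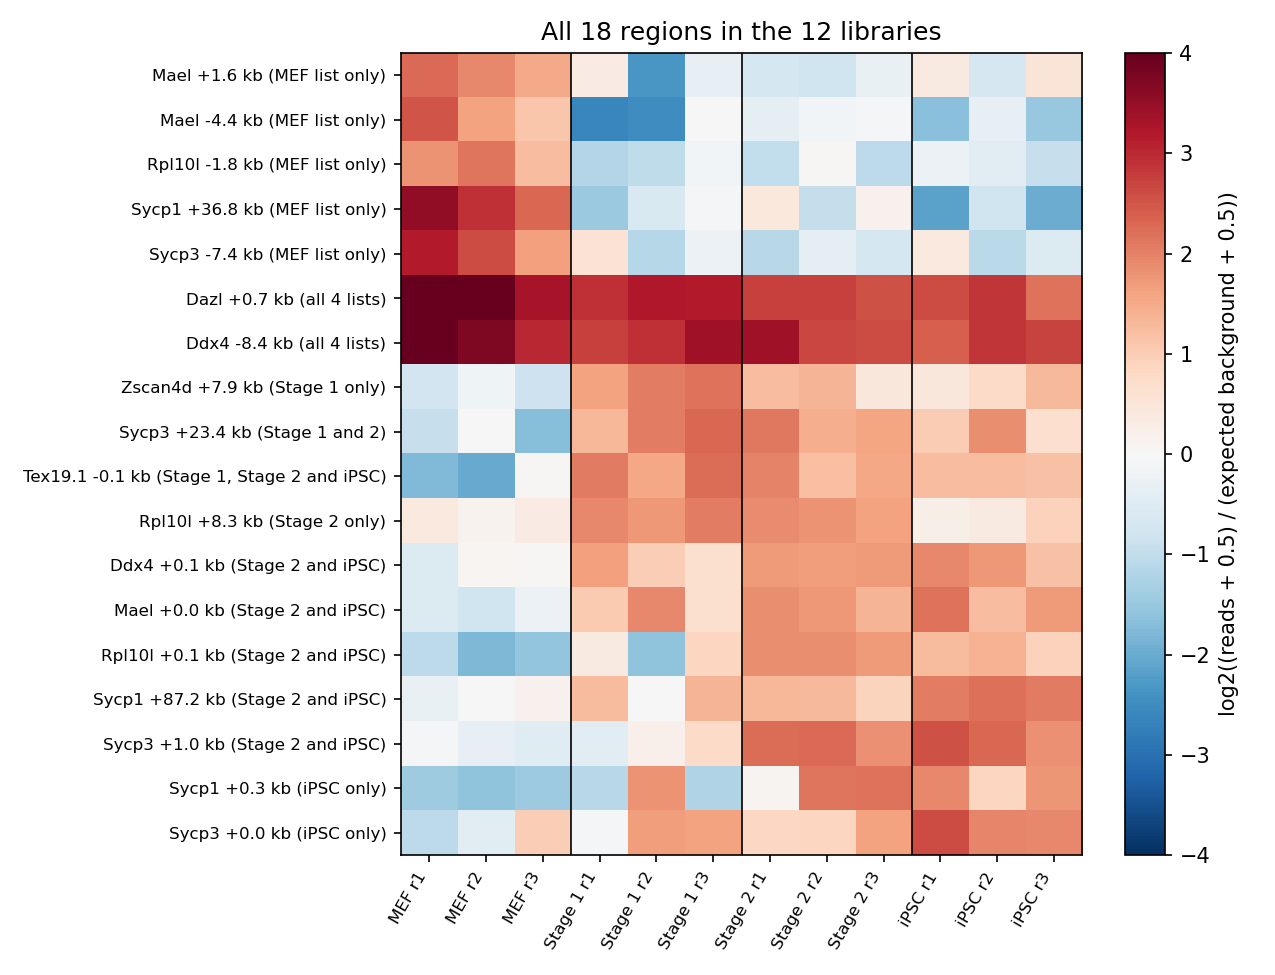
Reads in each of the 18 regions (rows, with the distance of the centre from the start) and 12 libraries (columns), as log2 of reads over expected background with 0.5 added to both. The top 5 rows, of the MEF list alone, are red in MEF; the 5 start-site regions are mostly pale or blue in MEF and mostly red in the later groups.

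Over the 5 start sites together every later library was above background and no MEF library was. Reads in the 5 start-site regions together were 0.476, 0.523 and 0.991 times the expected background in the MEF libraries, and 2.44, 2.51 and 2.68 times in Stage 1. They were 3.49, 3.08 and 3.21 times background in Stage 2 and 3.94, 3.08 and 2.79 times in iPSC. No later library overlapped the MEF libraries, while Stage 2 and iPSC overlapped. In a model of all regions, 5 of the 5 rose in Stage 1 against MEF and 5 of 5 in iPSC against MEF (edgeR quasi-likelihood F test, two-sided, Benjamini-Hochberg adjusted p under 0.05), beside 22.1% and 20.5% of all tested start-site regions that rose, while 33.9% and 43.8% fell. All 5 were absent from the MEF list but in the iPSC list, as were 5.63% of all start-site regions. Those shares are therefore no like comparison, and the 5 rises follow in part from the lists. Between the later stages 1 of the 5 rose in Stage 2 against Stage 1, at Rpl10l (2.31% of all start-site regions rose and 5.23% fell), and 1 in iPSC against Stage 2, at Sycp3 (0.481% rose and 1.29% fell). Their median log2 fold change was 2.69 in Stage 1 against MEF, where that of all start-site regions was -0.17, and 3.86 in iPSC against MEF, where it was -0.33. When fold changes were scaled to all reads of a library in place of the TMM-adjusted reads in regions, all 5 kept their call and direction in both comparisons with MEF. They did so too without MEF replicate 3. That scaling moved the median of all genes by -0.97 in Stage 1 against MEF, by -0.37 in Stage 2 against Stage 1, by -0.34 in iPSC against Stage 2 and by -1.68 in iPSC against MEF.

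**Figure D3:**
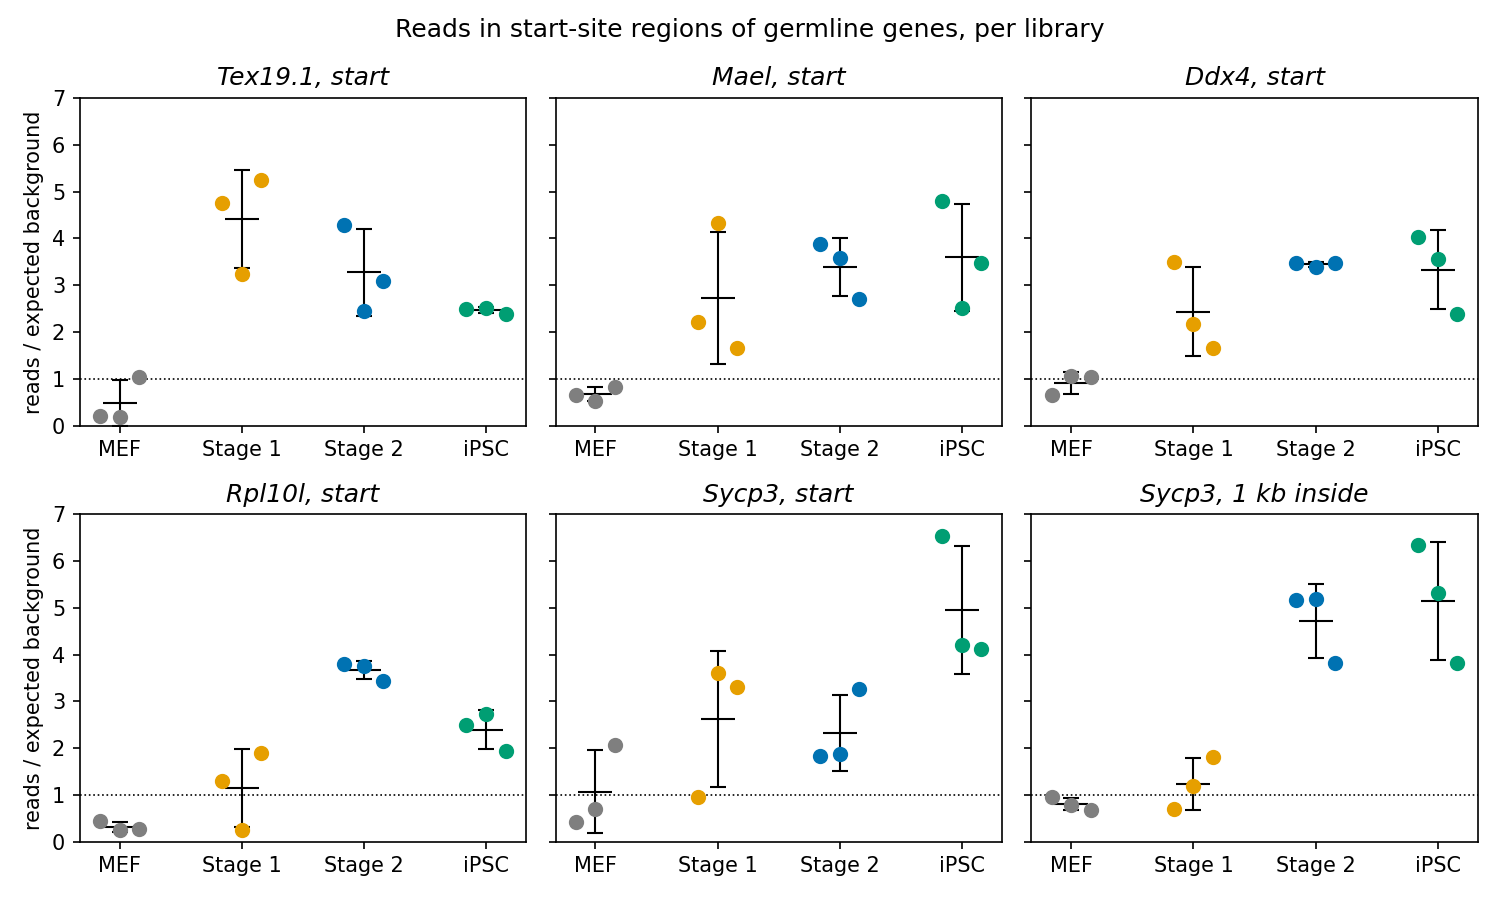
Reads over expected background (ratio, linear axis) in each library for the 5 start-site regions and the region 1 kb inside Sycp3; points are libraries, bars the mean ± SD of 3, and the dotted line is background. Tex19.1 is already high in Stage 1, Rpl10l and the inner Sycp3 region are near background in Stage 1 and high in Stage 2, and the Sycp3 start is highest in iPSC.

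**Figure D4:**
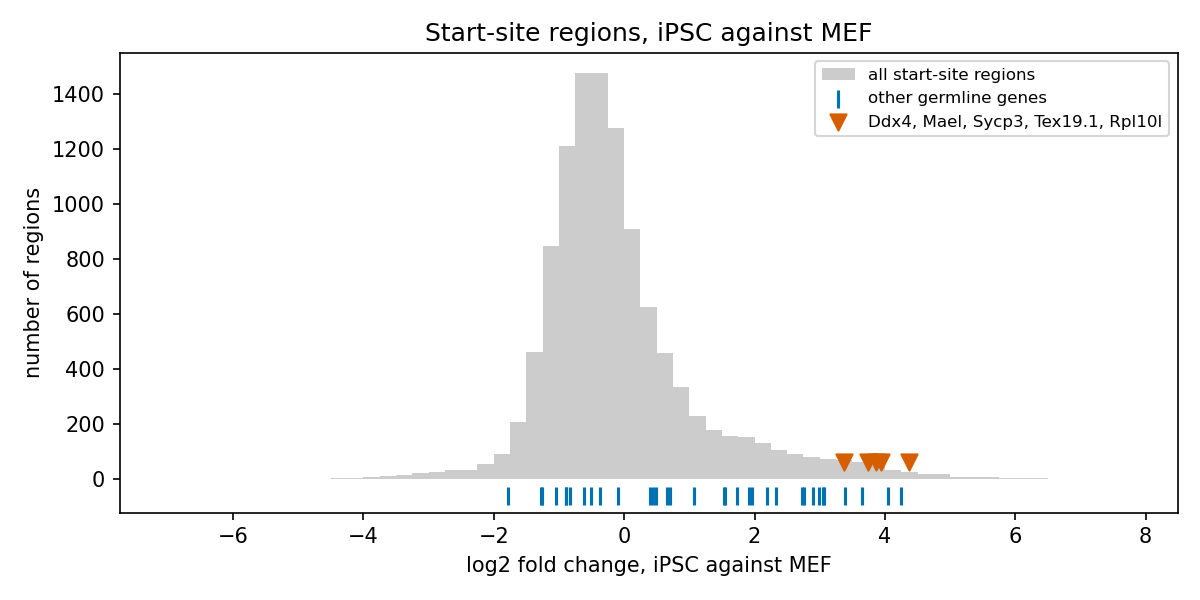
Log2 fold change in iPSC against MEF of 11024 tested start-site regions (grey histogram), of 34 regions at other germline genes (blue ticks) and of the 5 at Ddx4, Mael, Sycp3, Tex19.1 and Rpl10l (triangles). The 5 triangles lie between 3.37 and 4.37, right of the bulk of the regions, whose median is -0.33. None of the 5 is in the MEF list, so their place follows in part from the lists.

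Tex19.1, a gene of germ cells and pluripotent cells whose product restrains retrotransposons, was already open in Stage 1. Its single region, chr11:121145751-121146300, covers the start of the gene on the plus strand and holds the whole promoter shown above. It had 1, 1 and 5 reads in MEF, 15, 9 and 19 in Stage 1, 21, 13 and 16 in Stage 2 and 13, 12 and 11 in iPSC. All 9 later libraries lay above the MEF libraries and the later groups overlapped one another. The log2 fold change was 4.01 ± 0.49 (SE) in Stage 1 against MEF (edgeR adjusted p = 4.50e-12) and 3.86 ± 0.51 in iPSC against MEF (adjusted p = 1.04e-10), or 3.32 and 2.52 with whole-library scaling. These sizes rest on few MEF reads: without MEF replicate 3, which held 5 of the 7, they were 5.28 and 5.04. Between Stage 2 and Stage 1 it was -0.05 ± 0.34 (adjusted p = 0.953) and between iPSC and Stage 2 it was -0.10 ± 0.35 (adjusted p = 0.932). Set against background, the region averaged 0.478 ± 0.487 in MEF cells, then 4.41 ± 1.04 in Stage 1, 3.27 ± 0.936 in Stage 2 and 2.47 ± 0.0688 in iPSC (mean ± SD of 3 libraries).

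Mael encodes a protein of the piRNA pathway, the small RNA system that silences transposons in the germ line. The region over its start, chr1:166238451-166239000 on the minus strand, had 3, 3 and 4 reads in MEF, 7, 12 and 6 in Stage 1, 19, 19 and 14 in Stage 2 and 25, 12 and 16 in iPSC. Every later library was above every MEF library, and Stage 1 and Stage 2 overlapped in CPM. It rose by a log2 fold change of 2.78 ± 0.53 in Stage 1 against MEF (edgeR adjusted p = 1.56e-06) and of 3.94 ± 0.43 in iPSC against MEF (adjusted p = 9.80e-14). The step of Stage 2 against Stage 1 was 0.77 ± 0.38 (adjusted p = 0.196). The other 2 Mael regions, chr1:166236901-166237300 inside the gene and chr1:166242901-166243350 upstream of it, were in the MEF list alone. They averaged at most 1.13 times background in any later group, against 4.22 ± 1.11 and 3.97 ± 2.12 times in MEF (SD, n = 3), where they had 46 and 48 reads over the 3 libraries. Both were under the low-count filter and were not tested. The start region held 75.8% of the 33 Mael reads in Stage 1 (95% Wilson interval 59.0% to 87.2%, counting error only) and 9.62% of 104 in MEF (5.31% to 16.8%).

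Ddx4 encodes the RNA helicase that marks germ granules. Its start region, chr13:112651901-112652450 on the minus strand, had 3, 6 and 5 reads in MEF, 11, 6 and 6 in Stage 1, 17, 18 and 18 in Stage 2 and 21, 17 and 11 in iPSC. In CPM no Stage 1 library fell within the MEF range, nor any Stage 2 library within the Stage 1 range. Over background, Stage 1 (1.65 to 3.49 times) and Stage 2 (3.39 to 3.47 times) overlapped. The log2 fold change was 2.19 ± 0.50 in Stage 1 against MEF (edgeR adjusted p = 4.70e-05), 0.92 ± 0.38 in Stage 2 against Stage 1 (adjusted p = 0.105) and 3.37 ± 0.41 in iPSC against MEF (adjusted p = 5.66e-12). The larger Ddx4 region, chr13:112660301-112661150, lies 8.42 kb upstream and holds the start site of Slc38a9, an amino acid transporter gene to which the start region was linked too. It held 150 of 199 Ddx4 reads in iPSC and 307 of 321 in MEF, so the gene's summed count was mostly that of its neighbour's start. Its reads were 123, 121 and 63 in MEF, 35, 36 and 63 in Stage 1, 84, 55 and 51 in Stage 2 and 44, 57 and 49 in iPSC. It rose in iPSC against MEF by 0.61 ± 0.18 (adjusted p = 0.00128), but with whole-library scaling it fell by 0.77 on the log2 scale (adjusted p = 0.0186; 4.89e-06 to 0.0396 over all alternatives).

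Dazl, the translational regulator that licenses germ cells, was open in every group. Its single region, chr17:50292451-50293300, begins 320 bp inside the gene on the minus strand. It had 199, 171 and 77 reads in MEF, 40, 44 and 55 in Stage 1, 53, 57 and 49 in Stage 2 and 52, 57 and 34 in iPSC. The groups overlapped in CPM, and the log2 fold change was -0.12 ± 0.17 in Stage 1 against MEF (edgeR adjusted p = 0.496) and 0.01 ± 0.17 in iPSC against MEF (adjusted p = 0.953). Over background it was highest in MEF, with 9.43 ± 1.09 in Stage 1, 6.69 ± 0.507 in Stage 2 and 6.33 ± 1.49 in iPSC, against 19.3 ± 8.75 there (mean ± SD of 3 libraries). With whole-library scaling the gene's count fell by 0.86 in Stage 1 against MEF (adjusted p = 0.00355) and by 1.39 in iPSC against MEF (adjusted p = 1.11e-06) on the log2 scale, where the alternatives ranged up to adjusted p of 0.893 and 0.416. In the gene model without that scaling the same reads gave 0.11 ± 0.16 in Stage 1 against MEF (adjusted p = 0.558). The small uncalled value in Stage 1 thus differed in sign between the region and gene models, and whole-library scaling made the change a called fall in both comparisons.

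Sycp3 forms the lateral elements of the synaptonemal complex, and its 4 regions did not all peak in the same group. Averaged over background, the start region and the region 1 kb inside were highest in iPSC. The downstream region was highest in Stage 1 and the upstream region in MEF. The start region, chr10:88459301-88459850, held the promoter with both E-box cores and had 2, 4 and 10 reads in MEF, 3, 10 and 12 in Stage 1, 9, 10 and 17 in Stage 2 and 34, 20 and 19 in iPSC. MEF and Stage 1 overlapped, and in CPM all iPSC libraries were above all others. The log2 fold change was 2.11 ± 0.52 in Stage 1 against MEF (edgeR adjusted p = 0.000157), 1.38 ± 0.35 in iPSC against Stage 2 (adjusted p = 0.0199) and 3.75 ± 0.40 in iPSC against MEF (adjusted p = 3.92e-14). Without MEF replicate 3 the fold changes against MEF were 3.15 in Stage 1 and 4.70 in iPSC, and without MEF replicate 1 that of iPSC was 3.13. The call against Stage 2 was lost without Stage 2 replicate 1 (adjusted p = 0.203) or 2 (0.138), without iPSC replicate 1 (0.221), 2 (0.0525) or 3 (0.0804), and with whole-library scaling (0.235); the alternatives ranged from 0.00355 to 0.235.

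The region 1 kb inside Sycp3, chr10:88460351-88460850, was near background until Stage 2. It had 4, 4 and 3 reads in MEF, 2, 3 and 6 in Stage 1, 23, 25 and 18 in Stage 2 and 30, 23 and 16 in iPSC. The Stage 2 and iPSC libraries were all above those of MEF and Stage 1. It rose by 2.29 ± 0.42 in Stage 2 against Stage 1 (edgeR adjusted p = 4.88e-05) and by 4.19 ± 0.39 in iPSC against MEF (adjusted p = 3.29e-17), and both calls held with whole-library scaling, at 1.91 and 2.83. Its smaller rise in Stage 1 against MEF, 1.47 ± 0.62 (adjusted p = 0.0241), was lost without MEF replicate 1 (adjusted p = 0.0536), without Stage 1 replicate 3 (0.158) and with whole-library scaling (0.259), in a range of 0.00375 to 0.259. The region chr10:88482751-88483250, 23.4 kb beyond the start, had 7 to 21 reads in a later library and 1 to 5 in a MEF library, and rose by 3.67 ± 0.49 in Stage 1 against MEF (adjusted p = 1.03e-10), or by 4.37 without MEF replicate 2. The upstream region chr10:88451901-88452450, of the MEF list alone, had 1 to 7 reads in each later library and 46, 37 and 16 in MEF, and was under the low-count filter. It was also linked to the neighbour Gnptab, and the other 3 Sycp3 regions to the neighbour Chpt1.

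Sycp1 forms the transverse filaments that span the synaptonemal complex, and the gene held a region that fell after MEF and another that was highest in iPSC. The region chr3:102898951-102899600, 36.8 kb into the gene on the minus strand and in the MEF list alone, had 69, 54 and 30 reads in MEF, 1, 2 and 4 in Stage 1, 8, 3 and 7 in Stage 2 and 1, 3 and 1 in iPSC. No later library reached the MEF range. It fell by 2.86 ± 0.44 on the log2 scale in Stage 1 against MEF (edgeR adjusted p = 7.24e-09) and by 3.23 ± 0.48 in iPSC against MEF (adjusted p = 3.20e-09), or by 3.85 without iPSC replicate 2. The region chr3:102848551-102849150, 87.2 kb into the gene, had 4, 6 and 6 reads in MEF, 9, 3 and 11 in Stage 1, 14, 15 and 11 in Stage 2 and 25, 26 and 23 in iPSC. The iPSC libraries stood above all others. It rose by 2.00 ± 0.48 in Stage 1 against MEF (adjusted p = 0.000116), by 1.26 ± 0.31 in iPSC against Stage 2 (adjusted p = 0.0157) and by 3.78 ± 0.36 in iPSC against MEF (adjusted p = 1.78e-16). The call of iPSC against Stage 2 was lost on leaving out any 1 of the 6 libraries of these groups (adjusted p between 0.0637 and 0.121) and with whole-library scaling (adjusted p = 0.310), in a range of 0.00604 to 0.310.

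Near the Sycp1 start itself lay a region of only 100 bp, chr3:102935701-102935800, shared with Nr1h5 and in the iPSC list alone. It had 0 reads in each MEF library, 0, 3 and 0 in Stage 1, 1, 6 and 6 in Stage 2 and 5, 2 and 4 in iPSC. Background alone would give 2.73 reads over the 3 MEF libraries. The exact two-sided Poisson 95% interval of 0 reads reaches 1.35 times background, so the MEF level could not be told from background at this depth. The 11 reads of iPSC were 4.15 times background (the same kind of interval, 2.07 to 7.42, counting error only), and the region was under the low-count filter.

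Rpl10l, the ribosomal protein gene of spermatocytes, was highest at its start in Stage 2. The region chr12:66283901-66284700 covers the promoter and the first part of the gene on the minus strand, and whether reads of the parent gene Rpl10 or other copies were placed there was not tested. It had 3, 2 and 2 reads in MEF, 6, 1 and 10 in Stage 1, 27, 29 and 26 in Stage 2 and 19, 19 and 13 in iPSC. In CPM all Stage 1 libraries were above MEF, all Stage 2 libraries were above Stage 1 and all iPSC libraries were below Stage 2. It rose by 2.69 ± 0.60 in Stage 1 against MEF (edgeR adjusted p = 3.94e-05), by 1.99 ± 0.37 in Stage 2 against Stage 1 (adjusted p = 6.10e-05) and by 4.37 ± 0.46 in iPSC against MEF (adjusted p = 1.19e-14). In iPSC against Stage 2 the change was -0.31 ± 0.29 (adjusted p = 0.664). In Stage 1 it was still close to background, at 1.15 ± 0.835 times, against 3.66 ± 0.194 times in Stage 2 and 2.40 ± 0.411 times in iPSC (mean ± SD of 3 libraries). The region 8.33 kb downstream, chr12:66275901-66276250, had 4 reads in each MEF library and rose in Stage 1 against MEF by 2.63 ± 0.49 (adjusted p = 1.20e-06). Its rise in iPSC against MEF, 1.80 ± 0.59 (adjusted p = 0.00397), was lost with whole-library scaling (0.45, adjusted p = 0.482, in a range of 0.000997 to 0.482). The upstream region chr12:66285951-66286450 was in the MEF list alone, with 1 to 5 reads in each later library and 16, 24 and 11 in MEF, and was under the low-count filter.

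Zscan4d, of the 2-cell embryo, had a single region that lies 7.92 kb beyond its start on the minus strand, outside the gene, at chr7:11158001-11158450. It was in the Stage 1 list alone and had 2, 4 and 2 reads in MEF, 9, 11 and 15 in Stage 1, 10, 12 and 6 in Stage 2 and 6, 7 and 10 in iPSC. All later libraries were above MEF and the later groups overlapped. It rose by 3.55 ± 0.50 in Stage 1 against MEF (edgeR adjusted p = 6.99e-10) and by 3.05 ± 0.56 in iPSC against MEF (adjusted p = 8.25e-07). Over background it stood at 0.636 ± 0.204 in MEF cells, then 4.46 ± 0.853 in Stage 1, 2.23 ± 0.717 in Stage 2 and 1.95 ± 0.638 in iPSC (mean ± SD of 3 libraries). No region was counted over the Zscan4d start, and the near-identical copies of this gene cluster make the placement of reads there uncertain. Of 7 marker genes of 2-cell-like cells, 3 had a region, and their sum was 10.1 to 21.4 CPM in the later groups and 3.98 to 5.97 CPM in MEF. Over background the sum overlapped, with 1.10 to 3.28 times in the later groups and 1.34 to 2.71 times in MEF.

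Taking all 13 regions that passed the low-count filter, 10 rose and 1 fell in Stage 1 against MEF, where 40.2% of all tested regions rose and 40.3% fell; with whole-library scaling and its own filter 9 rose and 5 fell. In Stage 2 against Stage 1, 2 rose, those 1 kb inside Sycp3 and at the Rpl10l start, against 6.14% of all regions, and none fell, against 4.3% of all regions (0 at an unadjusted p under 0.05, 0 by DESeq2). In iPSC against Stage 2, 2 rose, those at the Sycp3 start and 87.2 kb into Sycp1, against 0.545% of all regions. None fell by edgeR (1.06% of all regions did), where 2 did at an unadjusted p under 0.05, and DESeq2 gave no adjusted p for 11 of the 13. In iPSC against MEF, 11 rose and 1 fell, where 40.8% of all regions rose and 40.8% fell. With whole-library scaling 9 rose and 6 fell. The shares of all regions are those of the TMM model, and shares with whole-library scaling are not given here. That scaling moved the median of all genes by -0.97 in Stage 1 against MEF and by -1.68 in iPSC against MEF. The other 5 regions did not pass the low-count filter, 4 of them of the MEF list alone. That filter works on reads scaled to library size, so reads in the larger MEF libraries weighed less. All 4 were lower in Stage 1 than in MEF without overlap in CPM, and the tallies of falls leave them out. Their choice by the MEF list fixes this in part, and the share of all regions that did so is not given here. Reads in the 5 regions of the MEF list alone were between 0.311 and 0.892 times background in all 9 later libraries, against 8.07, 5.65 and 3.45 times in MEF, a difference that their choice by the stage lists fixes in part.

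The sum over a gene's regions joins start sites with regions of the MEF list, and it changed less than the start sites did in both comparisons with MEF at Mael, Ddx4, Sycp3 and Rpl10l. In Stage 1 against MEF, 5 of the 8 genes rose (33.1% of all genes tested) and none fell by edgeR (31.6% of all genes; 1 of the 8 at an unadjusted p under 0.05, 0 by DESeq2). The rises were 4.24 for Tex19.1 (5.48 without MEF replicate 3), 3.78 for Zscan4d, 1.24 for Rpl10l, 1.08 for Sycp3 and 0.74 for Ddx4 on the log2 scale. Over background, the summed levels of Rpl10l, Sycp3 and Ddx4 overlapped between Stage 1 and MEF. With whole-library scaling, Tex19.1 and Zscan4d alone rose, Sycp3 and Rpl10l stayed positive without a call, Ddx4 turned negative, and Dazl, Mael and Sycp1 fell. Sycp1 had 7.90 ± 1.06 CPM in Stage 1 and 12.1 ± 0.649 CPM in MEF, a log2 fold change of -0.58 ± 0.28 that just missed the threshold (adjusted p = 0.0594; 3.95e-05 to 0.156 over the alternatives). Mael had 8.28 ± 2.13 CPM in Stage 1 and 7.53 ± 0.899 CPM in MEF (0.12 ± 0.31, adjusted p = 0.746), although its start region rose.

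In Stage 2 against Stage 1, 2 of the 8 genes rose (7.74% of all genes) and none fell (8.2% of all genes; 0 at an unadjusted p under 0.05, 0 by DESeq2). Rpl10l rose by 1.11 ± 0.26 (edgeR adjusted p = 0.00111), with 22.8, 27.9 and 26.4 CPM in Stage 2 and 11.9, 8.03 and 14.6 CPM in Stage 1. Sycp3 rose by 0.67 ± 0.21 (adjusted p = 0.0186), a call lost without Stage 1 replicate 1 (adjusted p = 0.161), without Stage 2 replicate 3 (0.0836), with DESeq2 (0.0583) and with whole-library scaling (0.519), in a range of 0.00215 to 0.519. Rpl10l also lost its call with whole-library scaling (adjusted p = 0.150, in a range of 2.85e-05 to 0.150). Sycp1 missed the threshold at 0.82 ± 0.30 (adjusted p = 0.0518) and passed it in 10 of 19 alternatives, in a range of 0.0452 to 0.434.

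In iPSC against Stage 2, 2 genes rose (4.97% of all genes), both of the synaptonemal complex, and none fell by edgeR (4.38% of all genes; 0 at an unadjusted p under 0.05); DESeq2 gave no adjusted p for any of the 8. Sycp1 rose by 0.77 ± 0.24 (edgeR adjusted p = 0.0337), with 24.4 ± 2.12 CPM in iPSC and 14.3 ± 1.86 CPM in Stage 2. Sycp3 rose by 0.64 ± 0.18 (adjusted p = 0.0154), with 49.9 ± 8.03 CPM in iPSC and 32.4 ± 3.07 CPM in Stage 2. Neither rise held with whole-library scaling (adjusted p = 0.433 and 0.524), and that of Sycp1 was lost without Stage 2 replicate 1 (0.122) or 2 (0.0769) and without iPSC replicate 1 (0.0510), 2 (0.0853) or 3 (0.103), and with regions of 1 gene only (0.0540). Sycp3 lost its call without Stage 2 replicate 1 (0.0685) or 2 (0.0516) and without iPSC replicate 1 (0.118); its alternatives ranged from 0.00599 to 0.524 and those of Sycp1 from 0.0233 to 0.433.

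In iPSC against MEF, 7 of the 8 genes rose (32.1% of all genes), Dazl being the exception, and none fell (33.7% of all genes; 0 at an unadjusted p under 0.05, 0 by DESeq2). The rises were 4.13 for Tex19.1 (5.37 without MEF replicate 3), 3.33 for Zscan4d, 2.39 for Sycp3, 1.98 for Rpl10l, 1.34 for Mael and 1.23 for Ddx4 on the log2 scale, and Sycp1 had 24.4 ± 2.12 CPM in iPSC and 12.1 ± 0.649 CPM in MEF (adjusted p = 3.40e-05). With whole-library scaling Tex19.1, Zscan4d and Sycp3 kept their rise, Rpl10l stayed positive without a call, and the other 4 turned negative, with Dazl and Sycp1 past the threshold. Set against the expected background, the summed level of Sycp1 was 2.42 to 2.65 times in iPSC and 3.05 to 6.43 times in MEF. Every iPSC library was thus below every MEF library in this ratio, although Sycp1 rose in CPM. That of Mael was 1.40 to 2.34 times in iPSC and 1.96 to 3.82 times in MEF, and that of Ddx4 was 4.90 to 6.10 times in iPSC and 5.56 to 10.7 times in MEF. The groups overlapped for Mael and Ddx4. They overlapped too for Rpl10l, with 1.52 to 1.82 times in iPSC and 1.18 to 1.78 times in MEF, and for Sycp3, with 2.56 to 4.07 times in iPSC and 1.63 to 3.06 times in MEF. Of the risen genes, Tex19.1 and Zscan4d alone had every iPSC library above every MEF library in this ratio. Dazl had 38.1 ± 6.01 CPM in iPSC and 30.9 ± 3.38 CPM in MEF (0.29 ± 0.16, edgeR adjusted p = 0.104), and passed the threshold without iPSC replicate 3 (adjusted p = 0.0453). The comparisons with MEF share the MEF libraries.

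**Figure D5:**
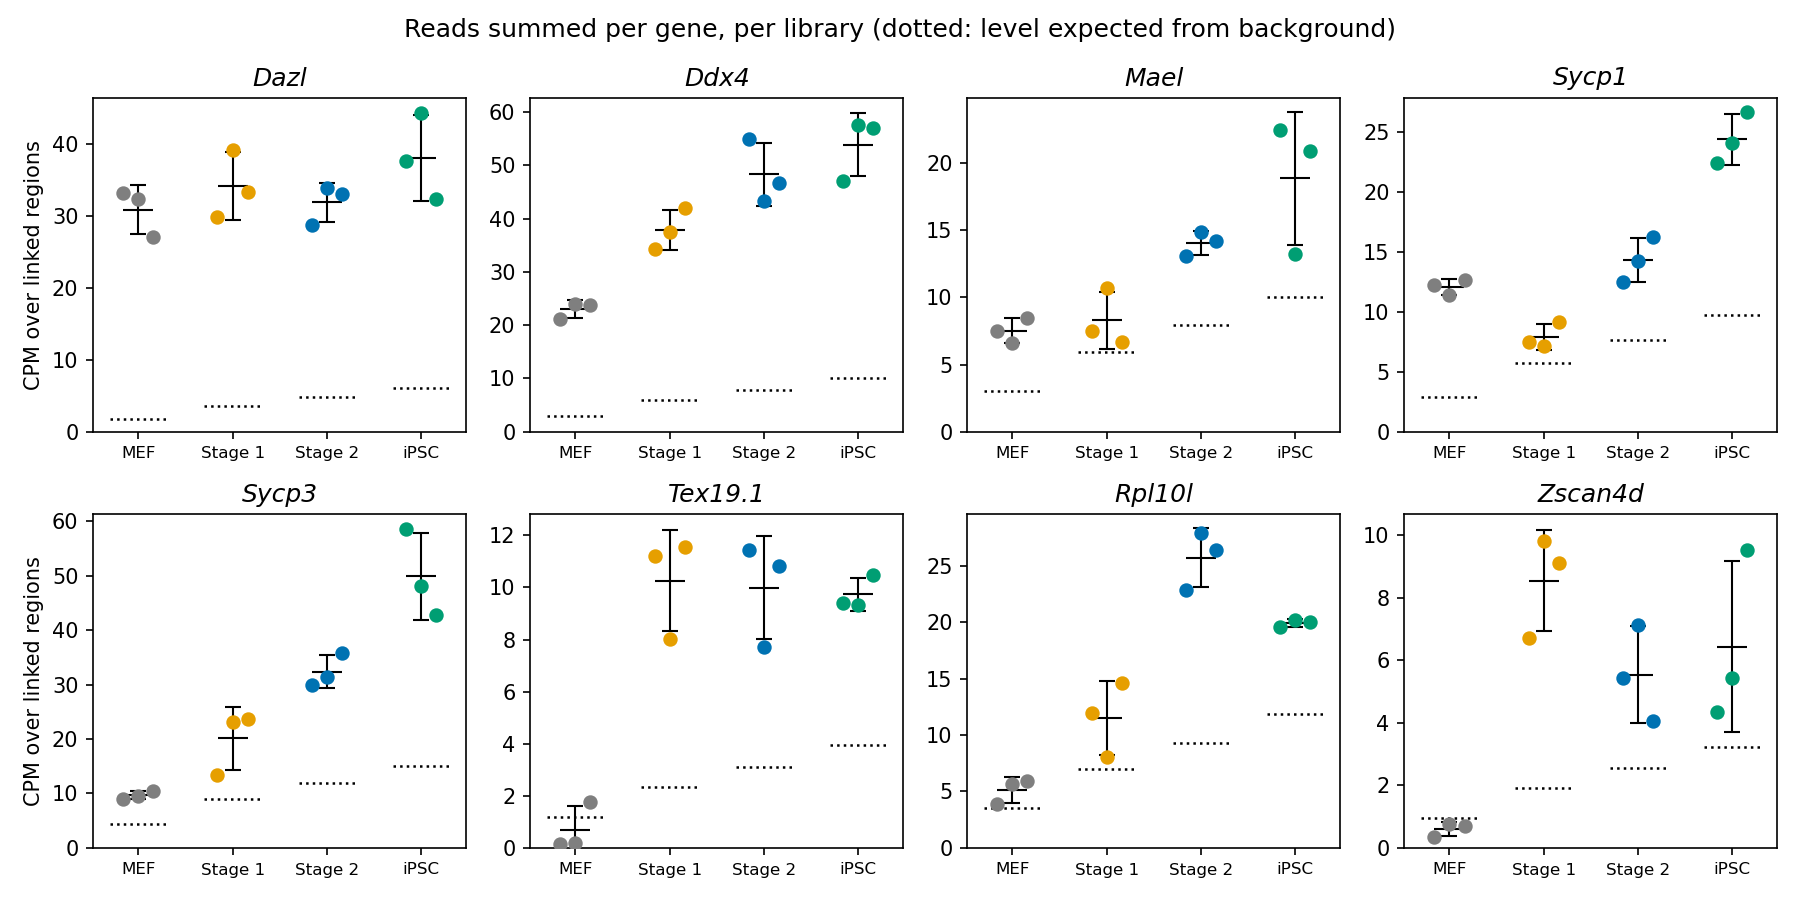
CPM (scaled to the TMM-adjusted library size of the gene model) of the reads summed over each gene's regions in every library. Bars give the mean ± SD of 3 and dotted lines the expected background of the group. Sycp1, Mael and Rpl10l lie close to background in Stage 1, and in iPSC against MEF all genes but Dazl are higher in CPM without overlap. The share of all genes that do so is not given here. These CPM include the growing background. Over background, Tex19.1 and Zscan4d alone are higher without overlap, and Sycp1 is lower, with 2.42 to 2.65 times in iPSC and 3.05 to 6.43 times in MEF.

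Other germline genes moved in both directions. Of a list of 98, 80 had a region and 74 were tested. Of these, 37 rose and 20 fell in Stage 1 against MEF, where 33.1% of all genes rose and 31.6% fell, with a median log2 fold change of 0.40 against 0.01 for all genes. In iPSC against MEF 39 rose and 20 fell, where 32.1% of all genes rose and 33.7% fell, with a median of 0.47 against -0.03. With whole-library scaling these turned to 8 risen and 36 fallen, and to 6 risen and 55 fallen. The median of all genes with that scaling was -0.96 in Stage 1 against MEF and -1.71 in iPSC against MEF. The shares of all genes that rose or fell with it are not given here, so these counts do not set germline genes apart. The largest rises were at Tcstv1, a gene of 2-cell embryos (4.27 in Stage 1 and 4.48 in iPSC, both against MEF), at Tdrd12, a piRNA factor (3.08 and 3.02), at Majin, which tethers meiotic telomeres (2.89 in Stage 1), and at Syce3, of the synaptonemal complex (3.32 in iPSC). Tcstv1 averaged 0.189 CPM in MEF, near 0, so its size is uncertain: leaving out 1 library moved it between 3.58 (without MEF replicate 1) and 6.33 (without MEF replicate 2) in Stage 1 and between 3.78 and 6.58 in iPSC, without the same libraries. The largest falls were at Gtsf1, a piRNA factor (-3.22 in Stage 1 and -2.26 in iPSC), at Hsf2bp, a meiotic recombination gene (-2.14 in Stage 1), and at Mei1, of meiotic double-strand breaks (-1.81 in iPSC); all of these kept their direction with whole-library scaling. The fall of Gtsf1 in iPSC ended when only regions within 1 kb of the gene were used (-0.05, adjusted p = 0.897). By role, 14 of 20 tested genes of germ cell specification and RNA binding rose and 3 fell in iPSC against MEF, and 14 of 33 meiosis genes rose and 13 fell, both meiosis counts lying near those shares of all genes. The first of these groups includes Kit, Prdm14, Dppa3 and Lin28a, and it was not limited to genes that germ cells alone use. Of 17 piRNA genes 8 rose and 4 fell, and 3 of 4 genes of 2-cell-like cells rose and none fell.

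Between neighbouring later stages few genes of the list changed, and no larger a share than of all genes. In Stage 2 against Stage 1, 3 of the 74 rose and 5 fell, where 7.74% of all genes rose and 8.2% fell. The 3 that rose, Sohlh2 (1.08), Hsf2bp (0.61) and Tex15 (0.37), lost their call with whole-library scaling, while Stag3 (-0.72) and Spata22 (-0.66) kept their fall there. The fall of Spata22 ended with the 1 kb window (-0.0586, adjusted p = 0.961) and that of Stag3 with regions of 1 gene only (-0.54, adjusted p = 0.595). Leaving out 1 library also ended the calls of Sohlh2, Hsf2bp and Tex15, and that of Spata22 without Stage 2 replicate 2 (adjusted p = 0.0502). In iPSC against Stage 2, where 4.97% of all genes rose and 4.38% fell, 2 rose, the meiosis genes Terb1 (0.65) and Mei4 (0.42), and 2 fell, Nanos2 (-0.70) and Lin28a (-0.52); none of the 4 kept its call with whole-library scaling, and each also lost it on leaving out some single library.

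Across the 12 libraries, the genes whose summed log2 CPM was most like that of Ddx4 were Dnaaf4, Cyct and Rbm45, each with Pearson's r of 0.983, in a field of 850 of 17538 genes with r above 0.9. For Sycp3 they were B3gnt6 (0.983), Sult2a4 (0.982) and Gm42134 (0.976), with 405 genes above 0.9, and for Dazl they were Arpp19 (0.860), Clic3 and Paxx (both 0.851), with none above 0.9. Ddx4, Sycp3 and Dazl were the 3 genes with the highest mean CPM of the 8. The region at the Slc38a9 start held 75.4% of the Ddx4 reads in iPSC and 95.6% in MEF, so the Ddx4 values are mostly those of that region. Cyct and Rbm45 had an identical r, as did Clic3 and Paxx, and whether such pairs share regions was not tested. The 12 points share 4 groups and a background that grew from MEF to iPSC, so the values are descriptions.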

How the data were processed

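For each of the 12 ATAC-seq libraries the authors deposited whole counts of reads in 115000 regions together with the number of reads outside them, and 1 list of open intervals per group. Build mm10 is credited to the submitters' processing notes, which also name, with no role, DESeq2 1.12.4, HTSeq 0.5.4p3, SAMtools 0.1.19, Picard 2.6.0 and Bowtie2 2.2.6. How intervals were called, duplicates handled or read ends shifted is not given in the sources used here. Reads in no region or in several stayed out of library sizes except in whole-library scaling; those in several made up 0.0311% to 0.230% of a library.

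Regions were linked to RefSeq genes of GRCm38.p6 (mm10) within 10 kb. The expected background of a region is its width times the reads outside all regions per base, over the length spanned by regions and genes on each chromosome less the 2.50% covered by regions. Counts were tested with edgeR 4.0.16 in R 4.3.3 (TMM, filterByExpr with a minimum count of 10 and a minimum total of 15, robust quasi-likelihood F tests, 1 model of 4 groups), which kept 17540 genes, all 8 described here among them, and 71069 regions. The pipeline was tested on simulated data. Errors of fold changes are SE, worked back from the test as the absolute log2 fold change over the square root of F. Errors of levels are SD. Alternatives were RLE scaling, whole-library scaling, DESeq2 1.42.0, no filter, a replicate block, a 1 kb window, regions of 1 gene only and leaving out each library. Intervals cover counting error only.

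All 8 genes are named in every comparison, and for each the region with most reads and that nearest its start are given by library. Other regions of the 8 given by library, such as the MEF-list regions of Sycp3 and Rpl10l, were chosen after their values were seen. Of the other germline genes, up to 3 risen and 2 fallen without overlap are named for each comparison; genes most like a member are the 3 with the highest r, for the 3 members highest in CPM. The 8 genes, the lists and the motifs were chosen with earlier results of these data known.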

Additional observations from a re-analysis of the deposited data

How the results depend on the processing

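The scaling moved the results most. With whole-library scaling the genes that rose numbered 2 in Stage 1 against MEF, 0 in Stage 2 against Stage 1, 0 in iPSC against Stage 2 and 3 in iPSC against MEF, the regions 0 in iPSC against Stage 2, and the other germline genes 8, 0, 0 and 6. It turned the sign of Dazl (-0.86), Ddx4 (-0.22) and Mael (-0.83) in Stage 1 against MEF, of Ddx4 (-0.0143) in Stage 2 against Stage 1, of Dazl (-0.0622), Ddx4 (-0.20) and Zscan4d (-0.18) in iPSC against Stage 2, and of Dazl (-1.39), Ddx4 (-0.43), Mael (-0.33), Sycp1 (-0.66) and the upstream Ddx4 region (-0.77) in iPSC against MEF. With regions of 1 gene only, which leaves no region at Ddx4 and Sycp3, the risen genes numbered 3, 1, 0 and 5 and the other germline genes 24, 1, 0 and 22 in the same order of comparisons. DESeq2 called 1 gene in Stage 2 against Stage 1 and 1 other germline gene there and in iPSC against Stage 2, and 0 of the 2 regions with an adjusted p in that comparison. The 1 kb window gave 5 other germline genes in Stage 2 against Stage 1 and no value for Zscan4d. The cause was not tested. The shares of all genes and regions called in these alternatives are not given here.

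Leaving out 1 library gave 5 to 5, 1 to 3, 0 to 2 and 7 to 8 risen genes, 9 to 11, 2 to 2, 0 to 2 and 11 to 11 risen regions, and 30 to 38, 0 to 4, 0 to 5 and 37 to 41 other germline genes. Signs of uncalled values turned for Mael in Stage 1 against MEF (-0.0583 without Stage 1 replicate 2, in a range up to 0.25). They also turned for Tex19.1 in Stage 2 against Stage 1 (0.06 and 0.11 without Stage 1 replicate 3 or Stage 2 replicate 2, in a range down to -0.19) and for Dazl there (0.00460 without Stage 2 replicate 1, in a range down to -0.17). In iPSC against Stage 2 they turned for Tex19.1 (0.10, 0.00 and 0.00 without Stage 2 replicates 1 and 3 or iPSC replicate 1) and for Zscan4d (-0.01 and -0.17 without Stage 2 replicate 3 or iPSC replicate 3, in a range up to 0.40). Of 1529 alternatives for single values 1415 left direction and call as they were.

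The correlation of deviations of same-numbered libraries ran from -0.105 to 0.107, and that of differently numbered libraries from -0.131 to 0.137. No pairing by number was seen in these values, and the labels do not tell whether same-numbered libraries share a culture. With the replicate block the risen genes numbered 5, 3, 2 and 7, and Sycp1 passed the threshold in Stage 1 against MEF (-0.61, adjusted p = 0.0479) and in Stage 2 against Stage 1 (0.84, adjusted p = 0.0479). Leaving assembly gaps out of the background was planned and not run, as no genome sequence was used here. The low counts at most of these regions limit which differences between groups could be told apart.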

Other observations

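Among the other germline genes, 34 had a region over their start site, and 8 of these (23.5%) were absent from the MEF list but in the iPSC list, beside 5.63% of 11525 start-site regions of all genes. Of the same 34, 18 rose and 10 fell in iPSC against MEF, where 20.5% of all start-site regions rose and 43.8% fell; the largest falls were at Piwil4 (-1.79), Stag3 (-1.27) and Dazap1 (-1.27). The 8 belong mostly to meiosis and were singled out after their values were seen: Hormad2 and Sycp2 of the chromosome axis, Rec8 of meiotic cohesin, Dmc1 of strand exchange, Meioc, which keeps germ cells in meiosis, Brdt, a testis reader of acetylated histones, Henmt1, which protects piRNA ends, and Kit, a receptor of germ cells and other lineages. Reads over the 3 libraries were 47 in iPSC and 7 in MEF for Brdt, 3.94 and 0.569 times background, with a log2 fold change of 4.24 ± 0.48 (edgeR adjusted p = 3.10e-13). For Hormad2 they were 51 in iPSC and 9 in MEF, 3.50 and 0.598 times background, with 4.04 ± 0.44 (adjusted p = 9.22e-14). The rises of the other 6 ranged from 2.19 for Henmt1 to 3.39 for Meioc; with whole-library scaling 7 of the 8 kept their call and Henmt1 did not (0.83, adjusted p = 0.0715). These regions, too, were counted because a later stage listed them.

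CACGTG stood in 20 of the 87 promoters of the list genes (23.0%), beside 6.02% of all promoters. GGCGGGAA stood in 6 of the list promoters (6.90%) and the NRF1 palindrome in 3 (3.45%), beside 1.86% and 0.782% of all. TGACGTCA and ATGCAAAT stood in 0 of the list promoters, beside 1.55% and 1.60% of all.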
